A study of Homo sapiens with 12 samples.

Results

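Of the 15993 genomic regions that could be judged, 845 (5.28%) still carried an H3K27ac peak in cells without EP300 but over at most 50% of their wild-type length. These halved regions were chosen by the rule described here from the peak lists themselves, so their loss in EP300-KO cells is a description and carries no test. H3K27ac is the acetylated form of lysine 27 of histone H3. It was mapped by ChIP-seq in SUDHL4, an established line of diffuse large B-cell lymphoma of the germinal-centre B-cell type. The 3 genotypes, with 2 clones each, were made with CRISPR/Cas9, and every clone grew from a single cell. The 2 EP300-KO clones were edited with guides against exon 17 (first clone) and exon 24 (second clone) of EP300. The 2 CREBBP-KO clones were edited with guides against exon 15 (first) and exon 20 (second) of CREBBP, although the name of the first carries another exon number than its protocol. The 2 control clones, called WT here, were edited at PPP1R12C and keep both acetyltransferase genes, so all 6 clones went through editing and cloning. The series has 12 samples, namely 6 immunoprecipitated libraries with 1 peak list each and 6 inputs. The clones of a genotype are separate cultures, and any test across them measures the spread between clones.

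EP300 and CREBBP are closely related lysine acetyltransferases that are brought to DNA by transcription factors and acetylate histones, among them H3 at lysine 27. The mark sits at active promoters and enhancers, and stretches of many acetylated elements close together are often found at genes that define a cell type. In germinal-centre B cells both enzymes act as coactivators. CREBBP is known for acting at light zone and antigen presentation genes, and EP300 for supporting genes of the dark zone, the compartment where these cells divide and mutate their antibody genes.

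The rule joined peaks of the 6 lists that shared at least 1 base into 48876 merged regions and counted the bases that each clone's peaks covered in each. A region on chromosomes 1 to 22 could be judged, and is called eligible, if all 6 clones had a peak in it and the WT clones averaged at least 500 covered bases. It was halved if each EP300-KO clone covered at most 50% of the WT mean. The other 15148 eligible regions serve for comparison. A covered length says how far called peaks extend along the DNA and not how strong the acetylation is, and the depth of each library is unknown. A smaller acetylated share of the cells and less acetylation per cell cannot be told apart.

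The lists of the EP300-KO clones were shorter throughout. They held 35054 and 35841 peaks, against 36096 and 41099 in CREBBP-KO and 46940 and 40658 in WT, and they covered 26.1 ± 0.104 Mb, against 31.7 ± 4.86 Mb in CREBBP-KO and 32.6 ± 1.83 Mb in WT (mean ± SD, n = 2). Over regions with a peak in all 6 clones, the median covered length was 752 and 761 bases in EP300-KO, 781 and 945 in CREBBP-KO and 911 and 860 in WT. When every clone was scaled to a common median, the rule found 566 regions, all of them among the 845. With every list kept to its 35054 best-scoring peaks it found 760. Sequence was covered in all 6 clones at the B-cell genes MS4A1, CD79A, CD79B, PAX5 and EBF1 and at the germinal-centre genes BCL6, MYBL1 and GCSAM, while LMO2 had covered bases only in the second CREBBP-KO clone (497). No base was covered at CD14, ALB, COL1A1 or NCAM1 in any clone. CD3E, a T-cell gene, did have 2769 to 4072 covered bases per clone.

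The same rule, applied to other pairs of genotypes, found few regions except where the EP300-KO clones were the low ones. Only 63 of 14438 regions (0.436%) were halved in WT against EP300-KO. Both CREBBP-KO clones covered at most 50% of the WT mean in 116 of 15993 regions, which is 0.725%, and both WT clones at most 50% of the CREBBP-KO mean in 59 of 15673 (0.376%). The EP300-KO clones were halved against CREBBP-KO in 864 of 15673 regions (5.51%), and the CREBBP-KO clones against EP300-KO in 105 of 14438 (0.727%). These comparisons share clones and are given side by side. The lengths were not scaled here, and the shorter EP300-KO lengths given above make the limit easier to reach in EP300-KO. Scaled counts were made only for EP300-KO against WT. On chromosome X, which the rule leaves out, 35 of 474 regions met the same conditions.

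Within the halved regions the EP300-KO clones lay below the threshold by the choice of regions, and the CREBBP-KO clones differed from each other. The median region kept 30.5% of the WT mean in the first and 34.6% in the second EP300-KO clone. It kept 74.0% in the first CREBBP-KO clone and 105% in the second, against 103% and 97.4% in the WT clones. In bases, the medians were 306 (range 99 to 3463) and 360 (99 to 4063) in EP300-KO, 794 (102 to 8330) and 1166 (152 to 9986) in CREBBP-KO, and 1159 (274 to 8133) and 1060 (204 to 9048) in WT. In the other eligible regions the 6 medians lay close together, at 91.7% and 92.1% of the WT mean in EP300-KO, 93.9% and 104% in CREBBP-KO and 102% and 98.4% in WT. The first EP300-KO clone was the lower of the 2 in 537 halved regions (63.6%), against 52.7% of the other eligible regions. Together the 845 regions held 334648 and 392171 bases of peaks in EP300-KO, 885197 and 1220979 in CREBBP-KO and 1187022 and 1123886 in WT.

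**Figure D1:**
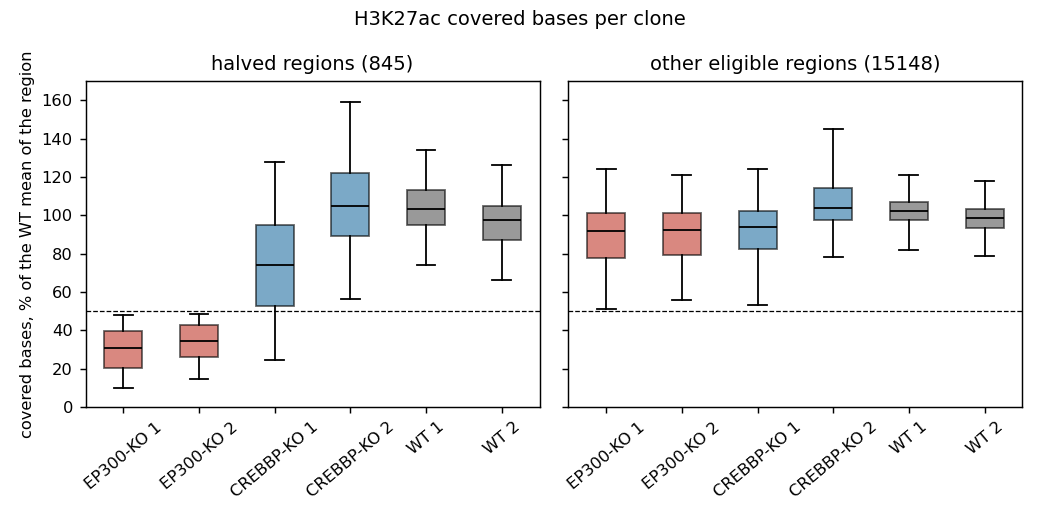
Covered bases of each clone as a percentage of the WT mean of the same region, for the 845 halved regions (left) and the 15148 other eligible regions (right). Boxes span the quartiles, the line is the median, whiskers run from the 5th to the 95th percentile over regions, and the dashed line marks the 50% that chose the regions; on the left the medians of the EP300-KO clones (30.5% and 34.6%) lie below that line by the choice of regions, and that of the first CREBBP-KO clone (74.0%) lies between them and the WT clones.

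Halved regions came in all sizes but were rarer among the longest. Of eligible regions with a WT mean of 500 to 1000 bases, 363 of 6603 (5.5%) were halved, and 351 of 5820 (6.03%) between 1000 and 2000 bases. The share was 112 of 2721 (4.12%) between 2000 and 4000 bases and 19 of 849 (2.24%) from 4000 bases upward. Some regions were close to disappearing from the lists. Both EP300-KO clones had under 200 bases left in 75 halved regions (8.88%), and either of them in 283 (33.5%). No WT clone had so few in any, a contrast that the rule largely fixes through its limits on both genotypes. These counts cover the halved regions only. The narrowest peak of every list is 99 bases wide, so regions with under 200 bases left rested on 1 narrow peak. At the other end, both EP300-KO clones still covered at least 1000 bases in 32 halved regions (3.79%).

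In CREBBP-KO clones no halved region passed the test against WT. The fit was limma on log2(covered bases + 100), centred on each clone's median, with Benjamini-Hochberg adjustment over all 19860 regions tested, and 825 of the 845 passed its filter on short regions. It called 0 halved regions lower in CREBBP-KO, against a background of 2 calls (0.0101%) over all regions, and 0 higher, against 0 (0%). At an unadjusted p of 0.05, 78 halved regions (9.45%) were lower and 26 (3.15%) higher in CREBBP-KO, where all regions gave 4.67% and 4.15%. The WT values took part in choosing the regions, so this contrast is not independent of the choice on the WT side. The fit's calls in EP300-KO against WT rest on the values that chose the regions, so their direction was fixed and nothing is read from them; they numbered 397 lower of the 825, beside 6.13% over all regions, and 175 without the first WT clone. The median log2 difference of the 825 was -1.18 in EP300-KO and -0.10 in CREBBP-KO, beside 0.06 and 0.02 over all regions. By clone, the CREBBP-KO median was -0.19 in the first and 0.00 in the second (all regions 0.07 and -0.01). The difference between the CREBBP-KO clones was larger than their mean difference from WT.

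Clone-by-clone counts need no fitted spread. The WT values took part in choosing the regions, so counts against WT are not independent of the choice here either. Their gaps to the backgrounds were not tested. Both CREBBP-KO clones covered at most 50% of the WT mean in 24 halved regions (2.84%), against 0.607% of the other eligible regions and the 0.725% of all eligible regions given above. Counted whatever the other clone did, the first CREBBP-KO clone did so in 194 (23%) and the second in 29 (3.43%). Both counts include the 24, and the other eligible regions gave 4.21% and 0.931%. Each CREBBP-KO clone was below each WT clone in 206 halved regions (24.4%), where 18.4% of all eligible regions did. They lay above the WT clones in 87 (10.3%), where the background is 14.8%. Both CREBBP-KO clones lay above both EP300-KO clones in 744 halved regions (88.0%), an order that the choice of low EP300-KO values largely fixes. Other halved regions were low in CREBBP-KO too, such as chr1:155047592-155050228. It had 851 and 937 bases in EP300-KO and 234 and 177 in CREBBP-KO, against 2555 and 2185 in WT. Among regions named by rule, the lowest CREBBP-KO share was in a region on chromosome 17, named for lying just inside the threshold. At chr17:77784767-77787008 the EP300-KO clones covered 745 and 1094 bases and the CREBBP-KO clones only 614 and 556, against 2242 and 2143 in WT (26.7% of WT in CREBBP-KO, log2 difference -1.71, SE 0.20, limma adjusted p = 0.15, n = 2 each).

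What remained in EP300-KO lay within the sequence acetylated in WT. In halved regions, 99.7% of the sequence covered in EP300-KO clones lay inside WT peaks, against 97.4% in the other eligible regions. The WT clones shared 971.5 kb in these regions, of which 712.5 kb were also covered in both CREBBP-KO clones and 256.4 kb in both EP300-KO clones. In the median halved region 27.1% of the bases shared by WT were left in both EP300-KO clones (other eligible regions 89.3%), and 76.3% were covered in both CREBBP-KO clones (94.7%). The median overlap between clones of a genotype (shared bases over all bases covered by either) was 0.60 in EP300-KO, 0.666 in CREBBP-KO and 0.74 in WT. In the other eligible regions it was 0.888 in EP300-KO, 0.87 in CREBBP-KO and 0.867 in WT, so EP300-KO had the lowest of the 3 values in halved regions and the highest elsewhere. Of the 845, 35 (4.14%) had no base in common between the 2 EP300-KO clones, against 4 of the other eligible regions, and in none of the 845 did the WT clones fail to overlap. Short EP300-KO lengths beside longer WT lengths chose the halved regions. The small part left in EP300-KO and the lower EP300-KO overlap there therefore carry no test, and nothing is read from them. The same choice bears on how much EP300-KO sequence lies inside WT peaks.

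The remaining peaks were shorter, which the choice of regions largely fixes, and not more numerous. A single peak made up 630 (74.6%) and 568 (67.2%) of the halved regions in the EP300-KO clones, 446 (52.8%) and 585 (69.2%) in the CREBBP-KO clones and 543 (64.3%) and 442 (52.3%) in the WT clones. In the other eligible regions it was 72.4% and 69.7% in EP300-KO, 70.8% and 82.9% in CREBBP-KO and 74.2% and 70.6% in WT. The EP300-KO shares in halved regions were thus near those elsewhere, and the WT shares were lower than elsewhere. The longest peak per region had a median width of 272 and 304 bases in EP300-KO, 628 and 1040 in CREBBP-KO, and 1022 and 858 in WT. Short EP300-KO lengths chose these regions, so the EP300-KO widths, and the EP300-KO coverage of the bins below, carry no test. The central of 3 equal parts of the WT stretch held 43.0% of the EP300-KO sequence in halved regions and 37.1% in the other eligible regions. Along the stretch, the EP300-KO clones covered 5.93% and 5.99% of the first of 20 equal bins on average and 28.8% and 34.3% of the tenth. In the CREBBP-KO clones these bins were covered to 27.6% and 57.3% and to 70.2% and 89.6%, and in the WT clones to 73.8% and 56.1% and to 88.6% and 85.6%.

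**Figure D2:**
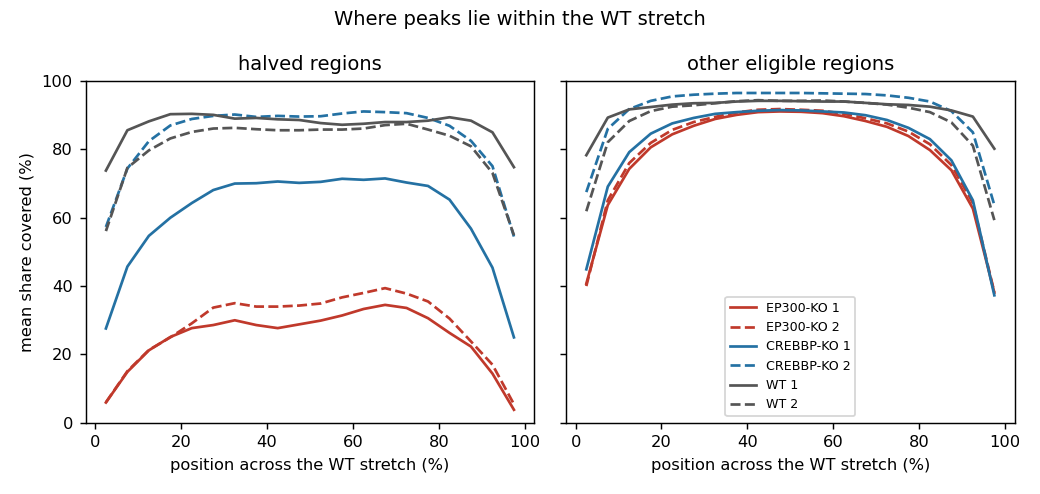
Mean share of each of 20 equal bins covered by peaks, against the position across the stretch from the first to the last WT base, in halved regions (left) and other eligible regions (right). In halved regions the EP300-KO clones peak at 34.5% and 39.4%, low by the choice of regions. The first CREBBP-KO clone, at 71.5%, runs below the second, at 91.1%. In the other regions all 6 clones peak between 91.1% and 96.5%.

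The remaining peaks also ranked low by score within their own lists. It is the authors' own value with no stated meaning, so it was used only as a rank within 1 list. The best peak of the median halved region ranked at the 25.8th and 32.7th percentile of the EP300-KO lists, at the 49th and 60.4th of the CREBBP-KO lists and at the 65th and 57th of the WT lists. In the other eligible regions the same ranks ran from 75.7 to 81.4 in all 6 lists, so the halved regions already ranked lower in WT cells. Score above the list's median was found for 15.3% and 19.9% of halved regions in EP300-KO, 48.4% and 73.0% in CREBBP-KO and 78.9% and 65.6% in WT. Short EP300-KO lengths chose the regions, so the low EP300-KO ranks carry no test and nothing is read from them.

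The 12 halved regions with the largest drop in covered bases were named by a fixed rule of size. The gene at each was assigned by general knowledge of gene positions on hg19, rounded to 1 kb, and all of these genes but FOXO1 were looked up after the values were seen. Chromosomes of the named genes were checked in the RefSeq table of another build, GRCh38.p14. A region within or near a gene need not regulate it. The largest drop lay in RASGRP3, which encodes an exchange factor that activates Ras in B-cell receptor signalling. At chr2:33716647-33722553 the EP300-KO clones covered 502 and 191 bases and the CREBBP-KO clones 3563 and 5005, against 5492 and 5400 in WT. The EP300-KO clones kept 6.36% of the WT mean, and the genotypes did not overlap, the CREBBP-KO clones being below WT as well (log2 difference -0.32, SE 0.34, limma adjusted p = 0.85 for CREBBP-KO). With the others in or beside this gene, 4 of the 11 eligible regions within 50 kb of it were halved. One of them, ending just before the largest at chr2:33714068-33716104, had 821 and 589 bases in EP300-KO and 1224 and 1665 in CREBBP-KO, against 1979 and 1733 in WT.

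The smallest share was left in ZNF608, a zinc finger gene. Its region at chr5:123993668-123999080 had 138 and 135 bases in EP300-KO and 1202 and 3398 in CREBBP-KO, against 5413 and 4104 in WT. Only 2.87% of the WT mean remained in EP300-KO and 48.3% in CREBBP-KO, where both clones were again below both WT clones (log2 difference -1.14, SE 0.38, limma adjusted p = 0.48). A region beside MYO1E, which encodes a class I myosin, came next at chr15:59696217-59700910. There the EP300-KO clones covered 231 and 291 bases and the CREBBP-KO clones 2139 and 4168, against 4659 and 4025 in WT, so that the second CREBBP-KO clone lay between the WT clones and the first far below them. The longest of the 12 lay at chr2:145435498-145445659, with no gene assigned here. It kept 3463 and 4063 bases in EP300-KO, against 8330 and 9986 in CREBBP-KO and 8133 and 9048 in WT, where CREBBP-KO and WT overlapped.

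The other 8 followed the same order for EP300-KO but not for CREBBP-KO. In ANO6, a calcium-activated lipid scramblase (chr12:45800496-45806426), the EP300-KO clones had 768 and 1745 bases and the CREBBP-KO clones 3605 and 4234, against 5760 and 4771 in WT. STK40, named as a serine/threonine kinase (chr1:36851662-36858395), had 2186 and 2717 bases in EP300-KO and 4527 and 5903 in CREBBP-KO, against 6732 and 6079 in WT. In both of these regions the CREBBP-KO clones lay below the WT clones. In PLEKHA2, whose product binds phosphoinositides at the membrane (chr8:38810846-38817931), the EP300-KO clones had 1613 and 2442 bases, and the CREBBP-KO clones (6331 and 6797) fell between the WT clones (7018 and 4561). SEPTIN9, a cytoskeletal GTPase, went the other way in CREBBP-KO. At chr17:75315234-75320623 the EP300-KO clones covered 147 and 769 bases and the CREBBP-KO clones 5038 and 5390, against 3127 and 4434 in WT. FOXP1, a forkhead factor needed in B-cell development, had 309 and 1665 bases at chr3:71502730-71507308 in EP300-KO and 2966 and 4145 in CREBBP-KO, against 4190 and 3986 in WT. The first EP300-KO clone was far lower than the second here, as it was at chr13:27799291-27804003, which had 145 and 1654 bases in EP300-KO and 2607 and 3696 in CREBBP-KO, against 4396 and 4402 in WT.

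**Figure D3:**
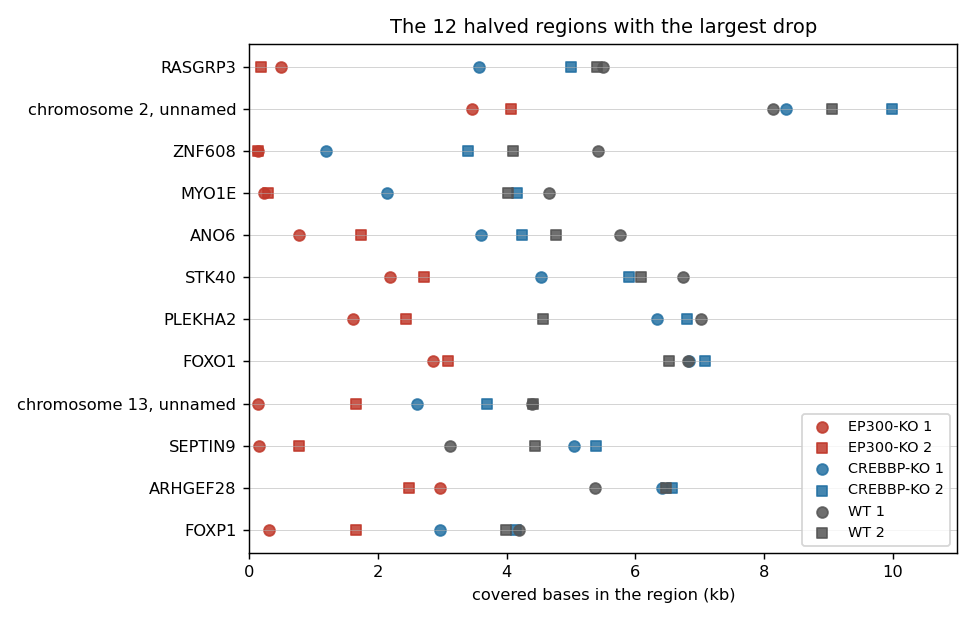
Covered kilobases per clone in the 12 halved regions with the largest drop, 1 row a region, circles for the first and squares for the second clone of a genotype. The EP300-KO clones (red) are lowest in every row because they chose the regions, and the CREBBP-KO clones (blue) range from below both WT clones (ZNF608) to above both (SEPTIN9).

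The threshold separated regions that differ little. The halved region nearest to it lay in ARHGEF28, which encodes a guanine nucleotide exchange factor, with 2960 and 2478 bases in EP300-KO at chr5:73216859-73223631 and 6409 and 6566 in CREBBP-KO, against 5378 and 6470 in WT. Just outside, chr5:177681355-177683813 had 996 and 1200 bases in EP300-KO and 2067 and 2459 in CREBBP-KO, against 2408 and 2391 in WT. At the second region inside, chr15:67378383-67379125, the EP300-KO clones had 347 and 251 bases and the CREBBP-KO clones 642 and 716, against 700 and 689 in WT. The next outside were chr2:38160998-38162749, with 170 and 720 bases in EP300-KO, 521 and 1371 in CREBBP-KO and 1169 and 1709 in WT, and chr12:48196274-48197826, with 686 and 247, 743 and 1127, and 1553 and 1189 bases in the same order.

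Genes of germinal-centre and B-cell biology were examined next, over 64 genes in 12 lists, counting eligible regions within 50 kb of each gene. Of 379 such regions 32 (8.44%) were halved, and 18 of the 64 genes had at least 1, beside 5.28% over all eligible regions. At MYBL1, POU2AF1, S1PR2, IRF8 and CD22 the halved region with the largest drop lay outside the recalled gene span. The MYBL1 span held 4742 and 5097 covered bases in EP300-KO and 3985 and 5205 in WT. These values were 5960 and 5778 against 5818 and 6192 at POU2AF1, and 4040 and 4284 against 5667 and 5527 at S1PR2. They were 10510 and 10321 against 13691 and 12570 at IRF8, and 3717 and 3965 against 5207 and 5693 at CD22. Of the 64 recalled gene lengths, 59 came within 3 kb of the RefSeq table, with IKZF1 and PLCG2 among the exceptions. The gene lists were drawn up with earlier results of these data known, and no test was made of them. Dark zone genes had the highest share, 6 of 23 regions (26.1%) at 2 of 3 genes, and 5 of the 6 lay in FOXO1. Genes that confine B cells to the germinal centre followed with 4 of 27 regions (14.8%), then B-cell receptor signalling with 10 of 87 (11.5%) and light zone and activation genes with 3 of 28 (10.7%). Germinal-centre transcription factors had 4 of 48 (8.33%), survival and cell cycle genes 2 of 46 (4.35%) and B-lineage transcription factors 3 of 74 (4.05%). None was halved among 16 regions at the MHC class II genes, 11 at the edited genes, 8 at housekeeping genes and 11 at genes of other cell types, while plasma cell factors had no eligible region. Of the edited genes, EP300 had 6 eligible regions and CREBBP 2, and peak lists of this kind cannot check the edits themselves.

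FOXO1, a transcription factor that upholds the dark zone programme, had 5 of its 16 eligible regions halved. The longest lay at chr13:41151380-41158458 with 2852 and 3092 bases in EP300-KO and 6838 and 7079 in CREBBP-KO, against 6813 and 6523 in WT. Both EP300-KO clones were below, and both CREBBP-KO clones above, the 2 WT clones. A run of 3 more ended just before it, at chr13:41144813-41146467, chr13:41146611-41148503 and chr13:41150158-41151183. The first of these had 524 and 535 bases in EP300-KO and 1362 and 1541 in CREBBP-KO, against 1172 and 1356 in WT. The second had 203 and 731 bases in EP300-KO and 1447 and 1864 in CREBBP-KO, against 1885 and 1258 in WT, and the third 105 and 323 in EP300-KO and 760 and 756 in CREBBP-KO, against 1013 and 740 in WT. In the first both CREBBP-KO clones were above both WT clones, and in the others they fell between them. The fifth, at chr13:41231567-41232674, had 157 and 168 bases in EP300-KO and 622 and 657 in CREBBP-KO, against 681 and 566 in WT. Across the whole recalled span of FOXO1 the covered length was 22321 and 24624 bases in EP300-KO, 39854 and 45380 in CREBBP-KO and 44118 and 41131 in WT.

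The other dark zone gene with a halved region was MYBL1, a transcription factor of dividing germinal-centre cells. The region, chr8:67563135-67566642, lay outside the recalled span of the gene, where EP300-KO and WT lengths overlapped. In the region, 835 and 607 bases were covered in EP300-KO and 3078 and 3382 in CREBBP-KO, against 2358 and 2945 in WT. The CREBBP-KO clones were above both WT clones, but by 0.32 on the log2 scale (SE 0.19), with a limma adjusted p of 0.70. CXCR4, a chemokine receptor that holds cells in the dark zone, had 2 eligible regions, neither of them halved, while its span held 0 and 296 covered bases in EP300-KO and 602 and 1345 in CREBBP-KO, against 1064 and 1198 in WT.

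Both genes of the confinement list with halved regions encode proteins of germinal-centre cell migration. S1PR2, a receptor that keeps B cells inside the germinal centre, had 3 of its 10 eligible regions halved. The one with the largest drop, chr19:10311079-10313036, had 624 and 615 bases in EP300-KO and 810 and 1584 in CREBBP-KO, against 1734 and 1358 in WT. Its neighbour at chr19:10309442-10310889 had 407 and 191 bases in EP300-KO and 824 and 1258 in CREBBP-KO, against 990 and 933 in WT. The CREBBP-KO clones differed from each other by more than the WT clones at both. At GCSAM, a germinal-centre signalling adaptor, chr3:111843710-111847856 had 160 and 589 bases in EP300-KO and 3290 and 4121 in CREBBP-KO, against 3285 and 3547 in WT. The CREBBP-KO and WT clones overlapped here and the EP300-KO clones kept 11% of the WT mean. GNA13, which encodes the G protein that S1PR2 signals through, had 13 eligible regions and none was halved.

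**Figure D4:**
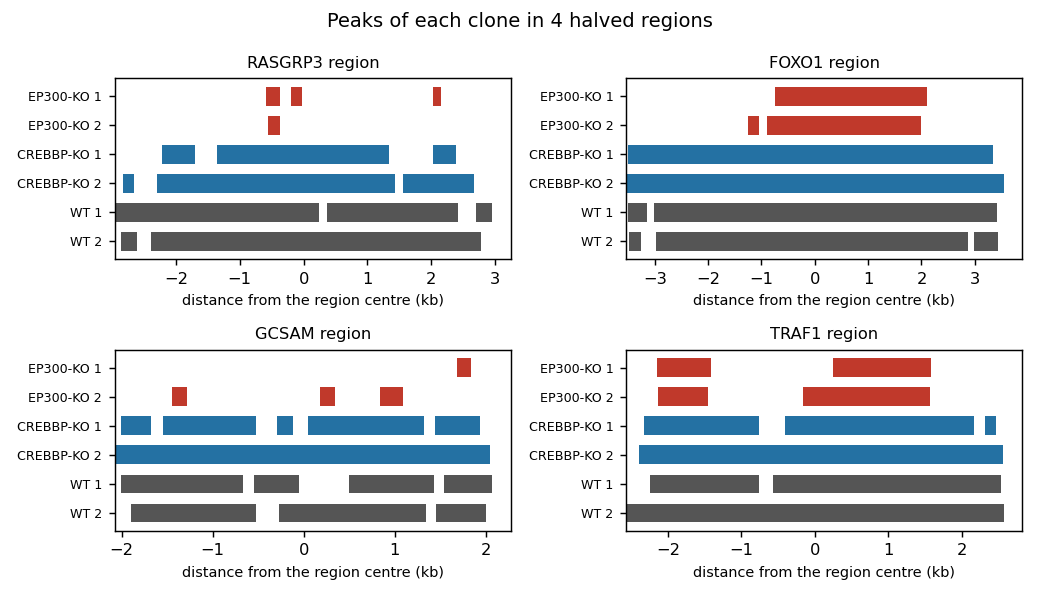
Peaks of each clone (bars) in 4 halved regions, against distance in kilobases from the region's centre. In the RASGRP3 and GCSAM regions the EP300-KO clones keep only short separate pieces (at most 502 and 589 bases in all), whereas in the FOXO1 and TRAF1 regions both clones keep a longer peak inside the WT stretch, with a second, shorter peak in both clones at TRAF1 and in the second clone at FOXO1.

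Among light zone genes, MYC and TRAF1 had halved regions. The region near MYC, the growth regulator switched on in selected light zone cells, was at chr8:128753646-128755567 with 356 and 185 bases in EP300-KO and 622 and 767 in CREBBP-KO, against 1922 and 916 in WT. The CREBBP-KO clones were below both WT clones too, at 48.9% of their mean (log2 difference -0.82, SE 0.37, limma adjusted p = 0.61), and the WT clones lay far apart.

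TRAF1, an adaptor of tumour necrosis factor receptors that is induced on B-cell activation, had a region at chr9:123687719-123692864 with 2057 and 2421 bases in EP300-KO and 4308 and 4964 in CREBBP-KO, against 4586 and 5146 in WT. A second one at chr9:123647973-123649777 had 323 and 443 bases in EP300-KO and 1537 and 1795 in CREBBP-KO, against 1599 and 1250 in WT. CD40, CD69, BCL2A1 and CD83, further genes of activated B cells, had 3, 5, 4 and 1 eligible regions within 50 kb, with none halved. The recalled span of CD69 held no covered base in any clone, and that of BCL2A1 only in WT (494 and 215). The CD83 span held 600 and 406 bases in EP300-KO and 614 and 1146 in CREBBP-KO, against 1198 and 1000 in WT. For CD40 these values were 2748 and 2902, 2874 and 3044, and 3255 and 2924.

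The start of 2 genes, TRAF1 and MYO1E, fell inside a halved region by the recalled positions, and their promoter sequences are shown because these are the named regions that hold a listed start. Whether the peaks left in EP300-KO cover the start itself was not tested. Both come from RefSeq (GRCh38.p14) and run 5′ to 3′ from 250 bases before to 50 bases after the start on the minus strand, for TRAF1 from the outermost of its listed starts. Capitals mark CCGGAA on either strand, the core motif of ETS factors, a family that includes ETS1.
TRAF1 promoter (chr9:120929122-120929421): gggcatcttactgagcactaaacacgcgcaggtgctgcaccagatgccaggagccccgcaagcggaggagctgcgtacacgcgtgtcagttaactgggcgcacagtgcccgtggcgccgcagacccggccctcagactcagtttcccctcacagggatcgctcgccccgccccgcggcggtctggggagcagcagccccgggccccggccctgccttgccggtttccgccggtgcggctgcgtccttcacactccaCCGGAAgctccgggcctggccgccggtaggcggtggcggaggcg
MYO1E promoter (chr15:59372822-59373121): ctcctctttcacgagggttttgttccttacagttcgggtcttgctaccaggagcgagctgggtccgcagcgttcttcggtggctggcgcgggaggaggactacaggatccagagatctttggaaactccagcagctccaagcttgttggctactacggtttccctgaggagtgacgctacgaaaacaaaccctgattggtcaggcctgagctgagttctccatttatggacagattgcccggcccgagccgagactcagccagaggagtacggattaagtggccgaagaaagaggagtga
The TRAF1 promoter held 1 match and the MYO1E promoter none, and 17.2% of all 35116 promoters of this length hold it on one strand or the other. Neither promoter held TGACGTCA, the motif of CREB, the factor after which CREBBP is named (1.85% of promoters), or ATGCAAAT, the octamer bound by POU2F factors together with POU2AF1 (1.77%). The halved region over the MYO1E start, chr15:59664291-59666157 on hg19, had 242 and 888 bases in EP300-KO and 1227 and 1788 in CREBBP-KO, against 1836 and 1859 in WT. For the genome stretches of the other regions no sequence is shown.

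Transcription factors of the germinal centre and the B lineage had 4 and 3 halved regions, several of them well below the threshold. In EBF1, which commits cells to the B lineage, chr5:158310602-158313185 had 335 and 339 bases in EP300-KO and 2347 and 2125 in CREBBP-KO, against 1451 and 2132 in WT. It was 1 of 22 eligible regions at this gene. In PAX5, which maintains B-cell identity, 1 of 11 was halved, at chr9:37001882-37003055, with 268 and 240 bases in EP300-KO and 958 and 1069 in CREBBP-KO, against 1114 and 840 in WT. BACH2, a repressor that delays plasma cell differentiation, had a region at chr6:91002636-91006616 with 284 and 1631 bases in EP300-KO and 3456 and 3744 in CREBBP-KO, against 3981 and 2872 in WT. The EP300-KO clones differed more there than the WT clones did. IRF8, a factor of germinal-centre B cells, had a region at chr16:85921847-85923242 in which the CREBBP-KO clones were low as well. It had 350 and 474 bases in EP300-KO and 466 and 663 in CREBBP-KO, against 1396 and 1090 in WT (log2 difference -0.98, SE 0.18, limma adjusted p = 0.26 for CREBBP-KO). POU2AF1, a B-cell coactivator, had 311 and 209 bases at chr11:111291613-111292493 in EP300-KO and 522 and 863 in CREBBP-KO, against 776 and 686 in WT. At IKZF1, the lymphoid factor Ikaros, chr7:50369271-50370499 had 384 and 147 bases in EP300-KO and 423 and 867 in CREBBP-KO, against 1129 and 604 in WT. BCL6, the master regulator of the germinal centre, had 3 eligible regions and MEF2C had 7, and none of these was halved.

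B-cell receptor signalling genes held 10 halved regions at 5 of 9 genes. PLCG2, the phospholipase that relays the receptor signal to calcium, had 4 of 21. Its strongest, chr16:81837340-81839320, had 484 and 501 bases in EP300-KO and 1326 and 1838 in CREBBP-KO, against 1981 and 1614 in WT. A second, chr16:81867267-81869045, had 403 and 751 bases in EP300-KO and 692 and 1608 in CREBBP-KO, against 1779 and 1502 in WT, the CREBBP-KO clones again being far apart. CD22, an inhibitory co-receptor, had 424 and 615 bases at chr19:35807139-35809192 in EP300-KO and 1580 and 2054 in CREBBP-KO, against 1792 and 1820 in WT. LYN, a kinase that acts at the receptor, had 457 and 1110 bases at chr8:56850126-56852893 in EP300-KO and 1803 and 2088 in CREBBP-KO, against 2494 and 2639 in WT. SYK, the kinase that follows it, had 330 and 99 bases at chr9:93569270-93570245 in EP300-KO and 804 and 976 in CREBBP-KO, against 525 and 831 in WT. At ITPKB, an inositol phosphate kinase, chr1:226897469-226898731 had 462 and 418 bases in EP300-KO and 640 and 1258 in CREBBP-KO, against 1229 and 892 in WT. The receptor subunits CD79A and CD79B, the adaptor BLNK and the surface protein MS4A1 had 5 or 6 eligible regions each and no halved one. Of the survival and cell cycle genes, CDK6, a kinase of early cell cycle, had the only 2, the larger drop at chr7:92250585-92252112 with 501 and 507 bases in EP300-KO and 641 and 1338 in CREBBP-KO, against 1111 and 1234 in WT.

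**Figure D5:**
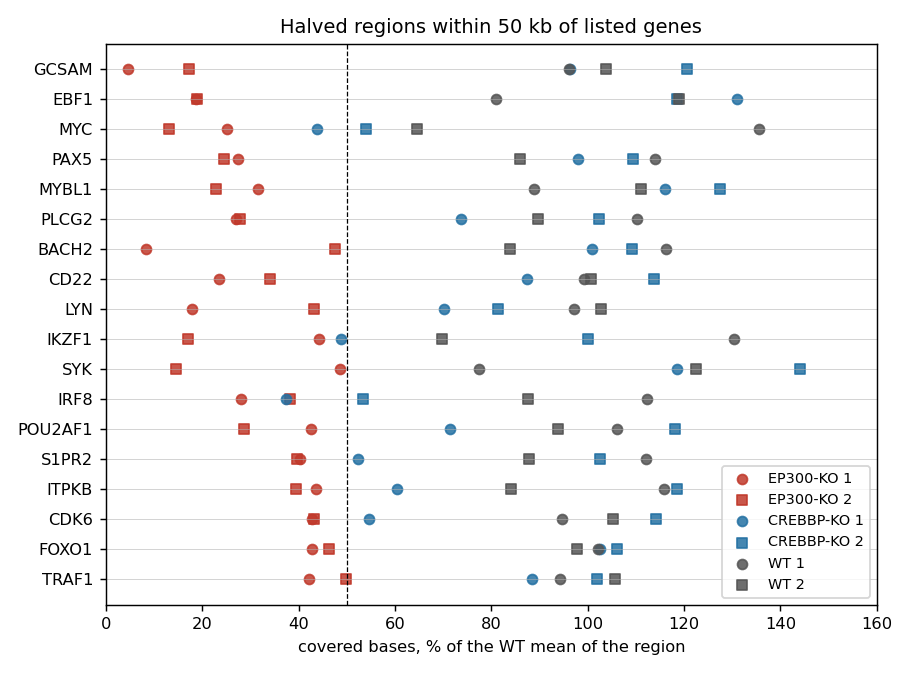
Covered bases per clone as a percentage of the region's WT mean, for the halved region with the largest drop at each of the 18 listed genes, circles for the first and squares for the second clone. The EP300-KO clones lie left of the dashed 50% line, which is what chose them; the CREBBP-KO clones lie right of both WT clones for MYBL1 and FOXO1 and left of both for IRF8, MYC and LYN.

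A pair of regions named after their values were seen lay at SMAD7, an inhibitor of TGF-beta signalling, and between the lymphocyte receptor genes CD48 and SLAMF1. The SMAD7 region at chr18:46458005-46461972 had 452 and 1067 bases in EP300-KO and 3795 and 3845 in CREBBP-KO, against 3766 and 3736 in WT. At chr1:160641874-160645526, near CD48 and SLAMF1, the EP300-KO clones covered 213 and 569 bases and the CREBBP-KO clones 3184 and 3648, against 3447 and 3401 in WT. WT and CREBBP-KO values were close in both regions.

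Halved regions lay near other acetylated sequence and near each other. Wide domains, which are merged regions stitched across gaps of up to a little over 12 kb with a WT mean of at least 10 kb covered, numbered 514. They held 272 halved regions (32.2%) and 2647 of the other eligible regions (17.5%). Of the 514, 194 had a halved region and 19 had 3 or more. The nearest other halved region was a median of 260.0 kb away, against 715.0 kb from the other eligible regions, and within 10 kb for 141 (16.7%, against 6.42%). A region lost altogether in EP300-KO, with a peak in both WT clones and in neither EP300-KO clone, lay within 10 kb of 418 halved regions (49.5%), against 22.6% of the other eligible regions. Any merged region at all lay within 10 kb of 92.4% of halved and 83.5% of other eligible regions. The median distance to the nearest one was similar, at 0.218 kb and 0.24 kb. Merged regions pool the peaks of all 6 clones, so these values do not give the density in WT alone. What part the density of merged regions has in the other shares was not tested.

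By chromosome the share of eligible regions that were halved was highest on chromosome 2 (92 of 1284, 7.17%) and chromosome 18 (22 of 308, 7.14%). It was lowest on chromosomes 19 (26 of 858, 3.03%) and 17 (27 of 861, 3.14%). In windows of 1 Mb, 552 of the 2054 windows with an eligible region had a halved one, and 369 of these had just 1. Only 14 windows held 5 or more, with 81 halved regions in all. Chromosome 2 from 65 to 66 Mb had 8 of 25 eligible regions halved, and chromosome 13 from 41 to 42 Mb, the window of FOXO1, had 8 of 39. One of the 8 on chromosome 2, chr2:65591016-65594382, had 506 and 1061 bases in EP300-KO and 2405 and 3249 in CREBBP-KO, against 2896 and 2746 in WT. Another, chr2:65279679-65280892, had 156 and 293 bases in EP300-KO and 152 and 821 in CREBBP-KO, against 1052 and 980 in WT, where both CREBBP-KO clones were below WT.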

How the data were processed

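H3K27ac ChIP-seq peak lists of 6 SUDHL4 clones were analysed, 2 each of EP300-KO, CREBBP-KO and WT. Reads were handled with Bowtie2 2.1.0, SAMtools 0.1.19 and CASAVA 1.8 on hg19, per the submitters' processing notes. Peaks were called for each immunoprecipitate against the input of the same clone, per the file headers, so the inputs entered only through the lists. The sources used here name no peak caller, and library depth is unknown. The authors deposited, per peak, other values that are genome positions and a score, a whole number from 14 or 15 to 170 with no stated meaning. Neighbouring peaks of a list lie at least 101 bases apart and none is narrower than 99 bases. Starts were read as counted from 0, which is not stated, so a printed start is uncertain by 1 base.

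Peaks sharing a base were merged with Python 3.11.15 (pandas 2.3.3), and covered bases were summed per clone. limma 3.58.1 (R 4.3.3, empirical Bayes with a mean trend) compared log2 values of the covered bases plus 100, with each clone's median over regions present in all 6 set to 0, and took in regions where 2 or more clones covered 500 bases or more. Regions passed at an adjusted p of 0.05 (Benjamini-Hochberg). The added 100 bases shrink the log2 differences of short regions. The trend was chosen with both outcomes known, and the fit without it is an alternative. The script was tested on simulated data. No exact permutation test is given, since 2 clones against 2 allow no p under 0.333.

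Named regions were the 12 with the largest drop, the 3 with the smallest share left, the 3 nearest the 50% limit on either side, any past the limma threshold in CREBBP-KO (there was none) and, per listed gene, the one with the largest drop. Other regions were named after their values were seen. The halved regions, the gene lists and the rules were chosen with earlier results of these data known. Gene positions on hg19 are recalled and come from no file; all 64 chromosomes matched the RefSeq GRCh38.p14 table, while the promoters are from its sequence table. Some items of the gene lists are not reported here.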

Additional observations from a re-analysis of the deposited data

Results flagged for a closer look

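In 5 named halved regions both EP300-KO clones lay below, and both CREBBP-KO clones above, the 2 WT clones. The 2 knock-outs thus lay on opposite sides of WT there, in some by a small CREBBP-KO difference. The difference between the knock-outs was not tested, and the EP300-KO values chose the regions. At FOXO1 (chr13:41151380-41158458) the EP300-KO mean minus the WT mean was -3696 bases and the CREBBP-KO mean minus the WT mean 290.5 bases. At SEPTIN9 (chr17:75315234-75320623) these differences were -3322.5 and 1433.5 bases. At MYBL1 (chr8:67563135-67566642) they were -1930.5 and 578.5 bases. At SMAD7 (chr18:46458005-46461972) they were -2991.5 and 69.0 bases, the CREBBP-KO difference being well within its error (log2 difference 0.06, SE 0.34, limma adjusted p = 0.99). Both CREBBP-KO clones lay above both WT clones in 10.3% of halved regions, a lower share than the 14.8% of all eligible regions. In CREBBP-KO none of these 4 passed the limma threshold. The fifth is a further FOXO1 region, chr13:41144813-41146467, which had 524 and 535 bases in EP300-KO and 1362 and 1541 in CREBBP-KO, against 1172 and 1356 in WT.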

How the results depend on the processing

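The 845 halved regions became 462 at a limit of 0.4 of the WT mean and 1410 at 0.6, and 482 with a WT mean of at least 1000 bases. Leaving out 1 clone gave 822 to 1657, most without the second EP300-KO clone (1657) or the first (1598). Without the first WT clone 671 of the 822 were among the 845, and without the second 760 of 1067. A WT mean of 250 bases (984), presence in the WT and EP300-KO clones only (901), joins across 500 bases (849), scaling to the clone median (566) and equal list length (760) stayed within 1.5 times. Among halved regions, the 0 called lower in CREBBP-KO became 1 with a pseudocount of 1000, no centring, equal list length or a variance prior without trend. Leaving out 1 clone gave 0 to 4 lower and 0 to 5 higher, 4 and 5 without the second WT clone. Calls in EP300-KO (397) were 259 with only the 4 clones compared and 175 to 386 without 1 clone (175 without the first WT clone, 184 without the second, 246 and 249 without a CREBBP-KO clone, 250 without the first EP300-KO clone). The cause of these shifts was not tested beyond the smaller number of clones. The median log2 difference in CREBBP-KO ran from -0.18 to 0.00 without 1 clone and from -0.14 to -0.05 otherwise. It was -0.003 without the first CREBBP-KO clone and -0.179 without the second, so its sign rests on the first clone. Of the halved regions, 170 lay in wide domains with gaps of up to 5 kb (20.1%, other eligible 10.5%), 480 with at least 5 kb covered (56.8% and 35.0%) and 117 with at least 20 kb (13.8% and 5.57%). The share left in both EP300-KO clones (27.1%) was 21 to 39.4% without 1 clone, an alternative chosen after seeing the data, as was the fit without trend. No paired analysis was possible because the labels give the clones no shared replicate numbers. Depth is unknown, so a peak missed at low depth cannot be told from absent acetylation.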
